A study of Danio rerio with 4 samples.

Results

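Expression of 8 genes of the Tie receptor system was examined in hearts of tie1 mutant zebrafish (Danio rerio) and their siblings. The genes are the receptor genes tie1 and tek, the angiopoietin genes angpt1, angpt2b and angpt4, the angiopoietin-like gene angptl1a, the receptor phosphatase gene ptprb and the matrix gene svep1. They were chosen by name as the core of the pathway, at a time when earlier results of these data were known. All 8 were found among the 16662 genes of the deposited table, each in a single row, and all 8 reached the mean of at least 10 needed for a test. Hand-dissected hearts were pooled at 48 hours post fertilisation, which gave 2 libraries from mutants, labelled tie1 KO, and 2 from controls, labelled tie1 WT. The series' design text counts both wild types and heterozygotes among the controls, which are therefore called siblings. Fish of both groups carried Tg(kdrl:eGFP), a reporter driven by the promoter of the endothelial gene kdrl. Neither the lesion in tie1 nor the number of hearts per pool is stated in those sources. Nothing states that the pools came from separate clutches, so any p-value measures the spread between these pools, which may be technical.

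Tie receptors are receptor tyrosine kinases found mainly on endothelium, including the endocardium that lines the heart. In mammals, angiopoietins secreted near or by vessels bind Tek, also called Tie2, where Angpt1 activates the receptor and Angpt2 can activate or block it depending on context. Tie1 binds angiopoietins poorly by itself and acts largely in complexes with Tek, while the phosphatase encoded by Ptprb (VE-PTP) removes phosphate from Tek and loosens its signal. The pathway is known for the maturation of blood vessels, the growth of lymphatic vessels and the shaping of the heart wall.

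Values are the authors' normalised counts, rounded to whole numbers and not corrected for transcript length, so a value can be compared between libraries, while a high value of one gene against another need not mean more transcripts. The libraries hold an estimated 1770000 to 3240000 assigned reads. Ribosomal RNA of mitochondria made up 43.4% and 37.6% of all normalised values in the mutants, against 32.9% and 30.4% in the siblings. All 23 endothelial and 10 heart muscle markers found in the table had values above 0 in every library. The endothelial sum was 4067 and 2566 in the mutants against 6025 and 3947 in the siblings. For heart muscle the sum was 77661 and 48611 against 116300 and 72119. In both sums mutant 1 lay above sibling 2. The summed value of 9 erythrocyte markers was 5126 and 4768 in the mutants against 13279 and 11366 in the siblings. The summed value of 9 rows of skeletal muscle markers was 1559 and 1704 against 2966 and 2851. The summed value of 6 neural markers was 544 and 270 against 358 and 174. The part of these tissues in the results below was not tested.

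All 8 genes had a log2 fold change below 0 in the mutants, which was true of 50.3% of the 12118 tested genes. In 4 of them, tie1, tek, ptprb and angpt1, the mutant values were all below the sibling values, an arrangement seen in 18.3% of the tested genes. In the other 4 the groups overlapped, and the opposite arrangement, seen in 15.7% of tested genes, occurred in 0 members. No member passed an adjusted p of 0.05 in limma, where 0% of tested genes passed in either direction. At an unadjusted p under 0.05 the 3 members tie1, tek and ptprb were lower, beside 4.34% of all tested genes, and 0 members were higher, beside 2.61%. The median log2 fold change of the members was −0.37, against −0.0016 over all tested genes.

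**Figure D1:**
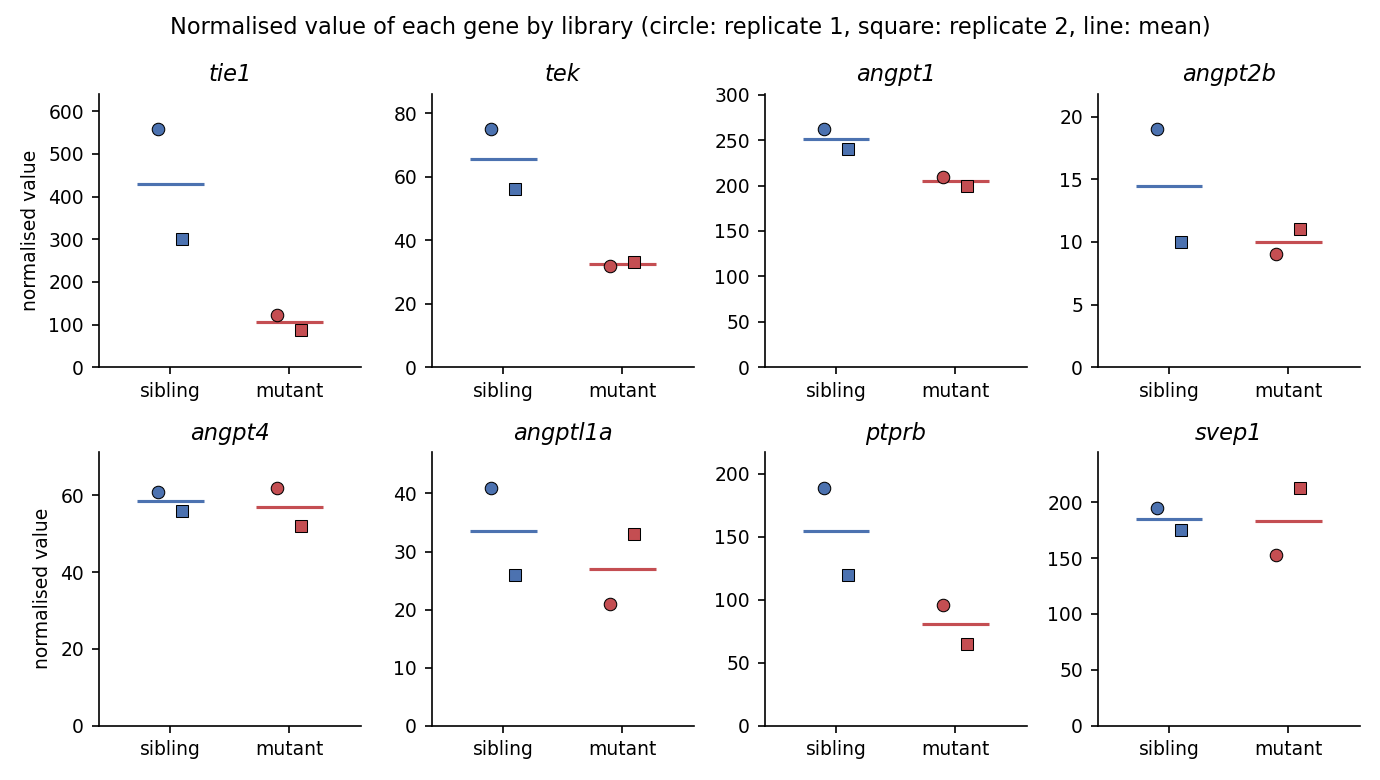
Normalised value of each of the 8 genes in the 2 sibling and 2 mutant libraries, each panel with its own axis starting at 0. Circles are replicate 1, squares replicate 2 and lines the mean of a group; tie1 stands at 123 and 88 in the mutants against 558 and 300 in the siblings, while angpt4 and svep1 overlap.

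The targeted gene tie1 (ENSDARG00000004105) had the largest difference of the 8. It encodes the receptor Tie1 and lies at 33979523 to 34008901 of chromosome 6 (minus strand, GRCz11). The tie1 value was 123 in mutant 1 and 88 in mutant 2, against 558 in sibling 1 and 300 in sibling 2. Even the lower sibling library was above both mutant libraries, and the mutant mean was 24.6% of the sibling mean. Estimated reads were 111 and 66 for the mutants, 748 and 344 for the siblings, with counting errors of 3.66% to 12.3%, so tie1 transcripts were still well detected in the mutant hearts. The log2 fold change was −1.97 ± 0.31 (SE), with an adjusted p of 0.148 in limma. Of the 12118 tested genes, 19 had a lower log2 fold change, and 12 had a smaller p.

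The receptor gene tek (ENSDARG00000028663), on the plus strand of chromosome 5 at 480119 to 496781, encodes the angiopoietin-binding partner of Tie1. It had normalised values of 32 and 33 in the mutants against 75 and 56 in the siblings. The mutant libraries agreed closely and both were below the siblings, with a mutant mean at 49.6% of the sibling mean. The log2 fold change was −0.97 ± 0.28 (SE), with an adjusted p of 0.484 in limma. These values rest on few reads, an estimated 29 and 25 for the mutants, 101 and 64 for the siblings, so the counting error alone is 9.95% to 20.0%. Without each library in turn the log2 fold change of tek ranged from −1.18 to −0.77.

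The phosphatase gene ptprb (ENSDARG00000076624), at 74271067 to 74367912 of chromosome 4 (minus strand), encodes the endothelial phosphatase that acts on Tek in mammals. The ptprb value was 96 and 65 in the mutants against 189 and 120 in the siblings. Both mutant values were lower, though replicate 1 stood above replicate 2 in each group, and the mutant mean was 52.1% of the sibling mean. The log2 fold change was −0.92 ± 0.30 (SE), with an adjusted p of 0.577 in limma. It was −0.60 without sibling 1, −0.64 without mutant 2, −1.20 without mutant 1 and −1.25 without sibling 2, so its size depended on which library was left out. A neighbour, on the opposite strand overlaps 832 bases of the ptprb span and had values of 11 and 4 against 7 and 3. Whether strand was used in the counting is not stated.

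Among the ligands, angpt1 (ENSDARG00000030364) was the one whose groups did not overlap. It encodes the activating angiopoietin, made in mammals by cells around the endothelium, and lies at 46812272 to 46957968 of chromosome 19 (minus strand). In the libraries angpt1 stood at 209 and 200 in the mutants against 262 and 240 in the siblings, a mutant mean at 81.5% of the sibling mean. The log2 fold change was −0.29 ± 0.20 (SE), with an adjusted p of 0.819 in limma. Though the difference is small, the libraries within each group lay close together. Of 11 markers of mural and mesenchymal cells, 9 were tested and 6 were lower. The summed value of all 11 was 1157 and 1336 in the mutants against 1569 and 1610 in the siblings. Over 10 heart muscle markers, 9 of them lower, it was 77661 and 48611 against 116300 and 72119. The part of either tissue in the angpt1 values was not tested.

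The gene angpt2b (ENSDARG00000053906) encodes the angiopoietin with context-dependent action and lies on the plus strand of the same chromosome at 35799384 to 35852390. Normalised values were 9 and 11 in the mutants against 19 and 10 in the siblings. Only sibling 1 stood apart, and the log2 fold change of −0.44 ± 0.52 (SE) came to −0.01 without that library. An estimated 8 reads in each mutant library, and 25 and 11 in the siblings, leave a counting error of 20.0% to 35.4%.

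For angpt4 (ENSDARG00000076787), a further member of the angiopoietin family on the plus strand of chromosome 6 at 51932267 to 52030817, the groups were nearly level. The angpt4 value was 62 and 52 in the mutants against 61 and 56 in the siblings. The mutant mean was 97.4% of the sibling mean, with a log2 fold change of −0.04 ± 0.26 (SE) that became 0.026 with totals taken without mitochondrial ribosomal RNA. It shares its chromosome with tie1, at a distance of 17.9 Mb.

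The angiopoietin-like gene angptl1a (ENSDARG00000012071), on the plus strand of chromosome 20 at 15982482 to 16007636, encodes a secreted protein of the same fold family that is not a classical Tek ligand. Its libraries read 21 and 33 in the mutants against 41 and 26 in the siblings. The groups overlapped and the log2 fold change was −0.30 ± 0.37 (SE). This gene lies wholly inside the span of ralgps2 on the opposite strand, which had 312 and 213 against 357 and 244. As no strand setting is stated, reads of ralgps2 may have been counted for angptl1a, which was not tested.

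The matrix gene svep1 (ENSDARG00000013526), on the plus strand of chromosome 7 at 24251367 to 24357169, encodes a very large secreted protein that is needed for lymphatic vessels in zebrafish and mouse. Normalised svep1 values were 153 and 213 in the mutants against 195 and 175 in the siblings. The mutant values lay on either side of both sibling values, with means of 183 ± 42.4 and 185 ± 14.1 (SD, n = 2 each). The log2 fold change was −0.03 ± 0.24 (SE), and it became 0.030 under quantile normalization and 0.035 with totals taken without mitochondrial ribosomal RNA.

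Within each library, the genes were next set against cdh5, the gene of VE-cadherin, which joins endothelial cells to each other. The cdh5 value was 1313 and 790 in the mutants against 1883 and 1117 in the siblings, so its mean was lower in the mutants, with a log2 fold change of −0.51 ± 0.32 (SE). That value was −0.13 without sibling 1, −0.14 without mutant 2, −0.88 without mutant 1 and −0.89 without sibling 2, and −0.28 under quantile normalization, and every ratio below depends on it. Mutant 1 lay above sibling 2, and replicate 1 exceeded replicate 2 in both groups. In bulk RNA of whole hearts, fewer endothelial cells and less RNA per endothelial cell cannot be told apart.

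Relative to cdh5, tie1 remained lower in both mutant libraries, and the libraries of a group lay close together. The ratio was 0.0937 in mutant 1 and 0.111 in mutant 2, against 0.296 in sibling 1 and 0.269 in sibling 2. That gives means of 0.103 ± 0.0125 and 0.283 ± 0.0196 (SD, n = 2 each), so the mutant ratio was 36.3% of the sibling ratio. For ptprb the ratio was 0.0731 and 0.0823 in the mutants against 0.1004 and 0.107 in the siblings. These groups did not overlap either, and the mutant mean was 74.8% of the sibling mean. Both mutant ratios lay below both sibling ratios in these 2 of the 8 members and in 2.09% of all tested genes. The other single genes used as endothelial references below, pecam1 and kdrl, had such ratios too. Their mutant mean ratios to cdh5 were 72.2% and 80.0% of the sibling means. The opposite arrangement, with both mutant ratios above both sibling ratios, was seen in 0 members and in 26.3% of all tested genes.

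For tek the ratio to cdh5 was 0.0244 and 0.0418 in the mutants against 0.0398 and 0.0501 in the siblings. Mutant 2 exceeded sibling 1, so the clear separation of the tek values was not kept on this scale. The angiopoietins overlapped as well. For angpt1 the ratio was 0.159 and 0.253 in the mutants against 0.139 and 0.215 in the siblings. For angpt2b it was 0.00685 and 0.0139 against 0.0101 and 0.00895, and for angpt4 0.0472 and 0.0658 against 0.0324 and 0.0501. In all 3 angiopoietins the mutant mean ratio was the higher one, but sibling 2 exceeded mutant 1. For angptl1a the ratio was 0.0160 and 0.0418 against 0.0218 and 0.0233, and for svep1 it was 0.116 and 0.270 against 0.104 and 0.157. Mutant 2 was the highest library for angpt1, angpt2b, angpt4, angptl1a and svep1 on this scale, and it also had the lowest cdh5 value of the 4.

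**Figure D2:**
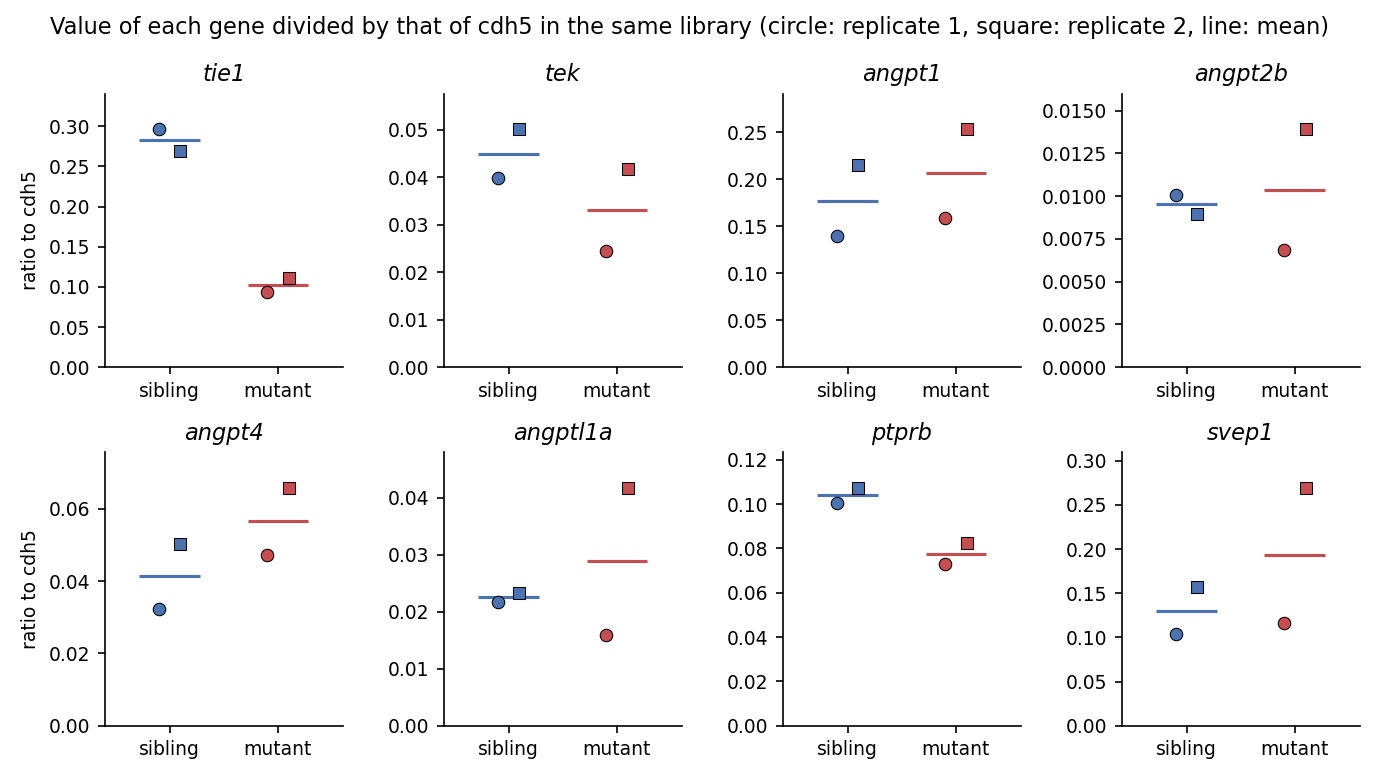
Normalised value of each gene divided by the value of cdh5 in the same library, with each axis starting at 0. Circles are replicate 1, squares replicate 2 and lines group means; the tie1 ratio is 0.0937 and 0.111 in the mutants against 0.296 and 0.269 in the siblings, and ptprb is the other gene whose groups do not overlap.

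A limma fit of all genes on the log2 scale, after subtracting the log2 value of cdh5 in each library, gave tie1 a log2 fold change of −1.46 ± 0.63 (SE) and an adjusted p of 0.877. For tek it was −0.46 ± 0.69, which ranged from −0.85 without mutant 2 to −0.077 without mutant 1. For ptprb it was −0.41 ± 0.66, while the other 5 members lay between 0.07 (angpt2b) and 0.48 (svep1). On this scale the median of all genes was 0.51, since cdh5 itself was lower in the mutants, and the median of the members was 0.14. None of the 8 passed the threshold, where 0.00825% of tested genes passed in each direction, 1 higher gene, tg, and 1 lower gene, myhz1.3, both named after their values were seen. At an unadjusted p under 0.05, tie1 was lower, beside 0.206% of tested genes, and 0 members were higher, beside 2.53%. A log2 fold change below 0 was found for 3 of the 8 members and 10.7% of tested genes. Every gene in this fit carries the same cdh5 values, so the spread that limma pools over genes includes that of cdh5 between libraries, and the p-values are not independent of each other. For the tie1 ratio alone, the exact two-sided permutation test gave p = 0.333, which is the smallest value that 4 libraries in 2 groups allow.

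Another endothelial reference moves all members by the same amount, and tie1 stayed below 0 under each one tried. Relative to the mean of 22 endothelial genes its log2 fold change was −1.43 ± 0.36 (SE), relative to kdrl −1.13 and relative to pecam1 −1.01, with limma adjusted p-values of 0.0704, 0.552 and 0.0254. On the same scales, tek was at −0.44 relative to the list, −0.14 relative to kdrl and −0.02 relative to pecam1. For ptprb the log2 fold changes were −0.39, −0.09 and 0.03. The VEGF receptor gene kdrl and the adhesion gene pecam1 themselves had log2 fold changes of −0.84 and −0.96, close to those of tek and ptprb. With pecam1 as reference, angpt4 at 0.91 and svep1 at 0.92 were past the threshold in limma, with adjusted p-values of 0.0496 and 0.0367. There, 5345 of 12117 genes were past it, 5329 higher and 16 lower, and the median of all genes was 0.95.

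**Figure D3:**
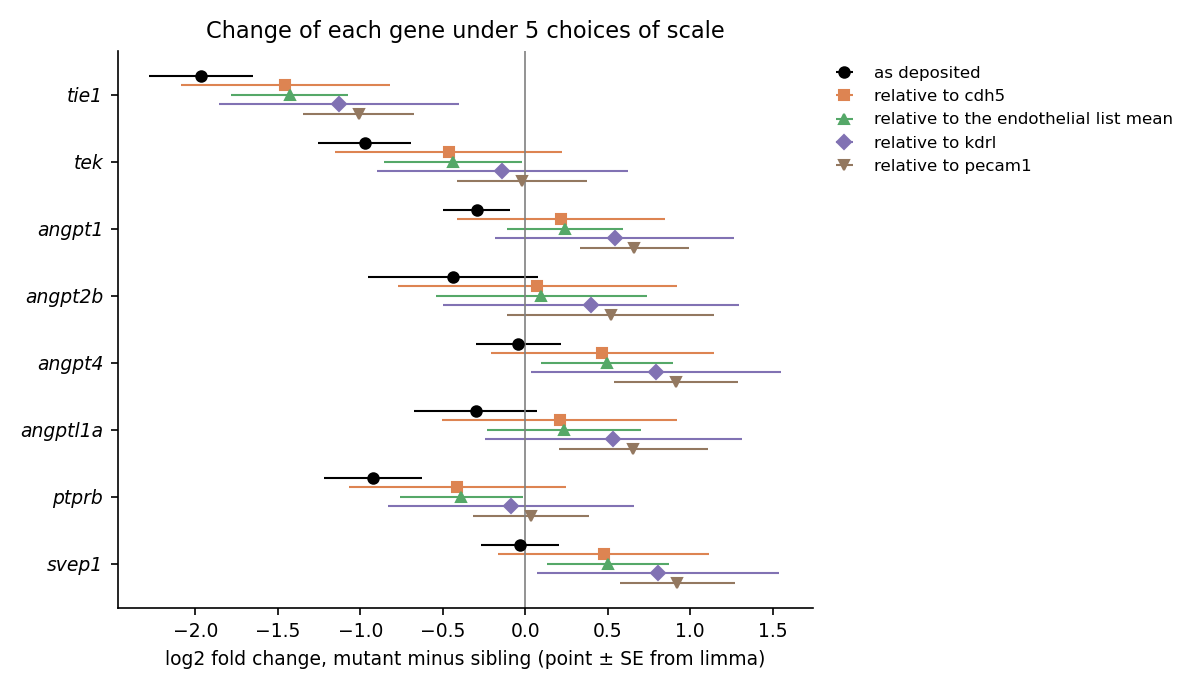
Log2 fold change of each gene, mutant minus sibling, as deposited and relative to 4 endothelial references, with bars showing the SE from limma. All 5 points of tie1 lie between −1.97 and −1.01, while those of tek and ptprb reach about 0 relative to pecam1 and the ligand and matrix genes cross from below 0 to above it.

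Set against the endothelial genes one at a time, tie1 had the most ratios without overlap among the members. Its ratio was lower in both mutants than in both siblings for 21 of the 22 endothelial genes, and the exception was mrc1a, a receptor gene of venous and lymphatic endothelium. At least 21 such ratios were found for 0.198% of all tested genes. The same was true of 12 of the 22 ratios for ptprb, reached by 1.39% of tested genes, and of 10 of the 22 for tek, reached by 2% of them. None of the 22 genes had a lower log2 fold change than tie1, while 2 were below tek and 3 below ptprb. The lowest of them was the VEGF receptor gene flt1, at 39 and 35 against 106 and 80, and its log2 fold change was −1.29. Of the 22, 21 were lower, with a median of −0.52. The 22 include tal1, at −1.165, and lmo2, at −0.56, and the part of blood cells in their values was not tested. For angpt4 and svep1, 21 of the 22 endothelial genes had a lower log2 fold change.

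**Figure D4:**
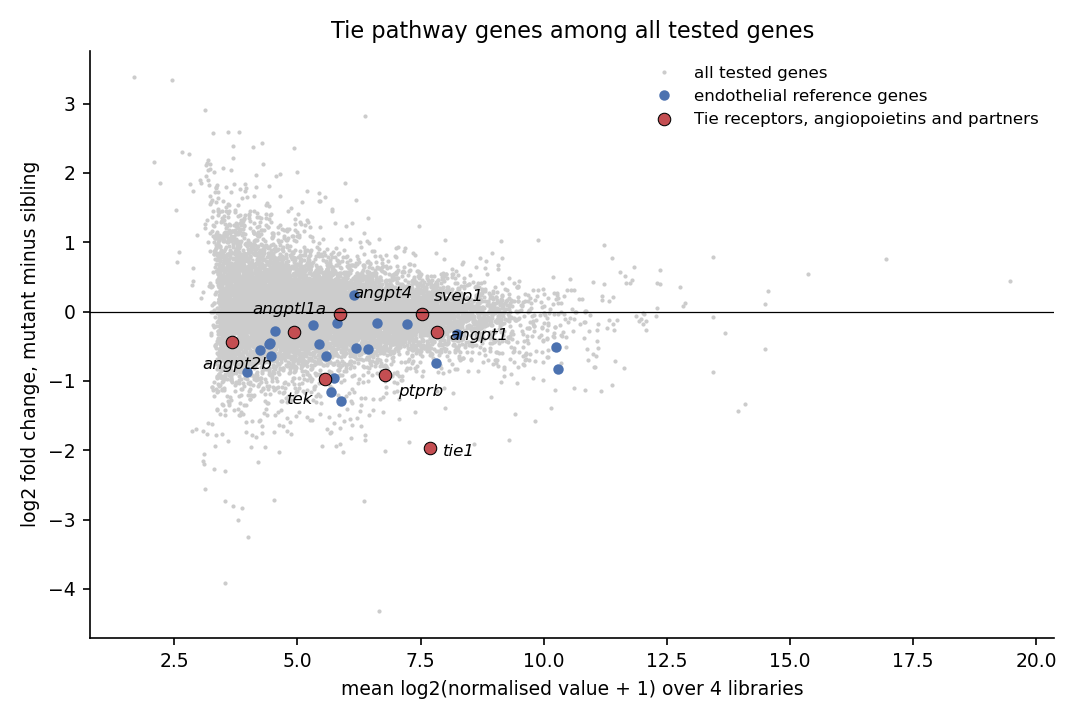
Log2 fold change, mutant minus sibling, against the mean log2(normalised value + 1) over the 4 libraries for the 12118 tested genes (grey), the 22 endothelial genes (blue) and the 8 members (red). The point of tie1, at −1.97, lies below every endothelial gene, tek and ptprb lie within their lower range, and angpt4 and svep1 lie near 0.

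Ratios between members were also taken within each library. Of the 28 pairs, 17 had ratios that did not overlap between the groups, and so did 10 of the 21 pairs without tie1. Over all pairs of tested genes with no value of 0, the share was 37%. Member pairs that share a gene are not independent of each other, so their count was not tested against that share. The ratio of tie1 to each of the other 7 members was lower in both mutants. The ratio of tie1 to tek, the partners of the receptor complex, was 3.84 and 2.67 in the mutants against 7.44 and 5.36 in the siblings. The ratio of tek to its activating ligand gene angpt1 was 0.153 and 0.165 in the mutants against 0.286 and 0.233 in the siblings, again without overlap. The ratio of tek to ptprb, the receptor and its phosphatase, was 0.333 and 0.508 against 0.397 and 0.467, so the siblings lay inside the range of the mutants. The ratio of angpt1 to angpt2b, the activating ligand and the context-dependent one, was 23.2 and 18.2 against 13.8 and 24.0 and overlapped too.

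The remaining genes of the pathway showed smaller and mixed differences. Of 9 other angiopoietin and angiopoietin-like ligand genes, 7 were in the table and 4 were tested, all 4 with higher mutant means and 0 past the threshold. Their median log2 fold change was 0.27. No gene of the 4 had groups that did not overlap, beside 18.3% of all tested genes lower and 15.7% higher in that way. The gene with the highest value was angptl4, a lipase inhibitor gene, at 157 and 120 against 95 and 133. Its log2 fold change was 0.29 ± 0.26 (SE).

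Of 31 adaptors, kinases and transcription factors downstream of the receptors, 28 were in the table and 26 were tested. Among these, 16 were lower and 10 higher, with 0 past the threshold and a median log2 fold change of −0.12. Both mutant values were below both siblings in 9 of these 26, beside the 18.3% of all tested genes. They were above both siblings in 1, beside 15.7%. The one with the highest value, the PI3 kinase subunit gene pik3r2, was level, with 510 and 488 against 491 and 484. The smallest p among the lower genes belonged to foxo3b, a transcription factor gene of the class that Akt holds outside the nucleus. The foxo3b value was 205 and 213 against 361 and 294, and the log2 fold change −0.64 ± 0.21 (SE), with an adjusted p of 0.586 in limma. Among the higher genes it belonged to the adaptor gene nck2a, at 51 and 37 against 23 and 19, with a log2 fold change of 1.02 ± 0.33 (SE) and an adjusted p of 0.565 in limma.

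Genes of lymphatic development, the process that also needs svep1, went both ways. Of 12 such genes, 11 were in the table and 7 were tested, 3 lower and 4 higher, with 0 past the threshold and a median of 0.13. The growth factor gene vegfc had values of 4 and 0 against 6 and 3, which are too low for a comparison. Its receptor gene flt4 stood at 4 and 9 against 13 and 22, with a log2 fold change of −1.34 ± 0.59 (SE) and an adjusted p of 0.713 in limma. The one with the highest value, the co-receptor gene nrp2b, had 426 and 200 against 201 and 200, so a single mutant library stood apart.

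Over the 4 libraries, the genes closest to tie1 among those compared were not other members. Likeness was the root mean square distance between log2 values centred on each gene's own mean, over 5410 genes with a mean of at least 50. The closest was nt5c2l1, a cytosolic nucleotidase gene, at a distance of 0.109, with values of 50 and 36 against 194 and 125. It was followed by the glycogen phosphorylase gene pygmb at 0.212, BX950188.1 at 0.214, alas2 at 0.220 and slc25a37 at 0.241. The genes alas2 and slc25a37 encode an enzyme of heme synthesis and a mitochondrial iron importer of red cells. With 4 libraries and 2 groups, any gene lowered by a like amount comes out as close, and the erythrocyte markers were lower in both mutants. The nearest member with a mean of at least 50 was ptprb, in place 56 at 0.529. The members tek, angpt2b and angptl1a had lower means and were not ranked against tie1. The distance between tie1 and tek was 0.555. Closest to tek were pla2r1, ntn1b and hadhaa, at 0.0445, 0.0527 and 0.0571, and ptprb stood in place 158.

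Position was used by neither the choice of the members nor the fits. Annotation was not used by the fits, but the members were chosen by pathway name, so terms shared among them follow from that choice. Within 1 Mb of tie1, 17 further genes were in the table and 14 were tested. Their log2 fold changes ranged from −0.82 to 0.85 with a median of −0.02, and 8 were lower, so none of the 14 had a log2 fold change as low as that of tie1. The Gene Ontology columns gave blood vessel development for 5 of the 8 members, tie1, tek and the 3 angiopoietins, and for 2.32% of the 7021 annotated genes. They gave no term for angptl1a, ptprb and svep1. By that annotation tie1 and tek share transmembrane receptor protein tyrosine kinase activity, and angpt1 and angpt4 share receptor tyrosine kinase binding.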

How the data were processed

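RNA of pooled zebrafish hearts was measured in 4 libraries, grouped by the titles in the labels. Per the labels' protocols, 2 ng of DNase-treated total RNA entered a stranded total RNA kit (SMARTer Pico). Tools listed in the submitters' processing notes are featureCounts 1.4.5-p1, Subread, STAR 2.4.0a and FastQC, with the build GRCz11. How the counts were normalised is not stated. The authors deposited normalised counts rounded to whole numbers, treated here as a score without a fixed unit. The spacing of values up to 400 gave a factor per library, from which reads were estimated, but rounding merges neighbouring read numbers in the sibling libraries, so no test for counts was used. The files hold no molecular identifiers, and counting errors, 1 over the square root of the estimated reads, cover counting only.

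Mutants and siblings were compared as log2(value + 1) for 12118 genes with a mean of at least 10, by limma (version 3.58.1, R version 4.3.3). The fit used a mean-variance trend, and p-values were adjusted by Benjamini and Hochberg over all of them, with a threshold of 0.05. Fold changes on this scale understate changes of low genes. The limma function, without a reference gene, was checked on simulated counts with known changes. These were drawn at equal library size and a single fixed dispersion, which the data need not share. A required share of calls was set only for changes larger than that of tie1. The fit was repeated after subtracting the log2 value of cdh5, and other references, scalings, pseudocounts, filters, variance models, a replicate block and omission of each library were tried. Python 3.11.15 was used for ratios and figures. By rule, the members were named, with the gene of highest value and those of smallest p per list. The closest genes to tie1 and tek were named as well. Others, such as vegfc, mrc1a, flt1, tg and myhz1.3, were named outside this rule. A gene that this rule names is not reported here. Members and lists were chosen with earlier results of these data known. Sequences were not used here.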

Additional observations from a re-analysis of the deposited data

How the results depend on the processing

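In every alternative that tested them, tie1, tek, angpt1, angpt2b and ptprb kept a log2 fold change below 0. A mean of at least 50 left tek, angpt2b and angptl1a untested. Relative to an endothelial reference tie1 and tek stayed below 0 and angpt4 above it. The log2 fold change of tie1 ranged from −2.41 to −1.52, and relative to an endothelial reference from −1.63 to −1.01. Without 1 library it ranged from −2.41 to −1.52 as deposited and from −1.58 to −1.33 relative to cdh5. Its adjusted p in limma ranged from 0.00138 to 0.902 as deposited. At a log2 fold change of −1.97, tie1 passed when the mean filter was raised to 50 (adjusted p of 0.0431), with the robust setting (0.0413) and with the replicate block (0.00138).

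The count of genes past the threshold, 0 as deposited, was 8 after TMM scaling, 5 with totals without mitochondrial ribosomal RNA, 13 with a mean of at least 50, 16 with the robust setting and 95 with the replicate block, and 0 without any 1 library. Relative to an endothelial reference the count, 2 with cdh5, was 0 with a pseudocount of 10, 1 with the robust setting, 20 without the variance trend, 3344 with the replicate block, 28 with the mean of the endothelial list, 4 with kdrl and 5345 with pecam1, and 0 to 5 without 1 library. The cause of these shifts was not tested. With the replicate block, tie1 relative to cdh5 was at −1.46 with an adjusted p of 6.09e-11 in limma. In that fit 3344 genes were past the threshold, 3239 higher and 105 lower, with tie1 among the lower ones. Every gene in that fit carries the same cdh5 values, so limma treats a shared deviation as independent, and this p-value overstates the evidence. With pecam1 as reference and no block, tie1 was past the threshold at −1.01. The numbers are shared between groups in the labels, which do not say that they pair the pools. Across 12118 genes, the difference between replicates 1 and 2 correlated at 0.198 between mutants and siblings.

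Members with small differences changed sign. With totals without mitochondrial ribosomal RNA angpt4 was at 0.026 and svep1 at 0.035, and under quantile normalization svep1 was at 0.030. Without 1 library, angpt4 ranged from −0.17 to 0.084, angptl1a from −0.62 to 0.019 and svep1 from −0.27 to 0.20. The sign turned without sibling 1 for all 3 (angpt4 0.020, angptl1a 0.019, svep1 0.045), without mutant 1 for angptl1a (0.014) and svep1 (0.20) and without mutant 2 for angpt4 (0.084). Relative to cdh5 under quantile normalization, angpt2b was at −0.28 and angptl1a at −0.042, and ptprb was at 0.034 relative to pecam1. Without 1 library ptprb ranged from −1.25 to −0.60. Relative to cdh5 without 1 library, tek ranged from −0.85 to −0.077 and angpt4 from 0.15 to 0.78, both on 1 side of 0, while angpt1 ranged from −0.12 to 0.55, angpt2b from −0.43 to 0.57, angptl1a from −0.47 to 0.89 and svep1 from −0.13 to 1.08. The lowest values of these last 4, all below 0, came without mutant 2, and angpt1 was also below 0 without sibling 1 (−0.097). Where 1 library was left out, the lone library of its group was assumed to vary like the other group. Depth limits angpt2b most, at an estimated 8 to 25 reads.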
